A study of Caenorhabditis elegans with 22 samples.

Results

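The gene mltn-3 and 7 further loci, mltn-4, T28F2.1, F44E5.2, C45G7.13, B0507.1, C55C3.7 and cdh-10, were followed across small RNA, total RNA and mRNA of Caenorhabditis elegans. They are 8 of 46780 annotated genes, and were chosen because their small RNA was far higher in eri-6 mutants than in wild type in these same libraries. The small RNA contrast of eri-6 with wild type is therefore described below without a test. The study asked how adenosine-to-inosine RNA editing and the ERI-6/7 branch of RNA interference act on endogenous genes and viral elements. It comprised 8 small RNA, 8 total RNA and 6 mRNA libraries from whole young adults with embryos inside, collected 70 h after the L1 arrest.

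Small RNA and total RNA had 2 libraries of each of 4 genotypes, and mRNA had 1 library for each of 6 conditions. Wild type was strain N2, except for replicate 1 of its small RNA, which was GR1831, a strain with the transgene mgIs30. The eri-6 strain was GR1814 with eri-6(mg379). For adr-1;adr-2, small RNA replicate 1 was BB4 with adr-1(gv6) and adr-2(gv42), and replicate 2 was BB21 with adr-1(tm668) and adr-2(ok735). For total RNA, adr-1;adr-2 was also labelled BB4, yet the alleles given were tm668 and ok735. The strain GR1744, called the triple mutant below, joins adr-1(gv6), eri-6(mg379) and adr-2(gv42) and is written adr-1 eri-6;adr-2. For mRNA, wild type and the triple mutant were fed HT115 bacteria carrying the empty vector L4440 (control), a drh-1 RNAi construct or an nrde-3 RNAi construct. No label shows libraries of 1 genotype as separate cultures, so the p-values measure only the spread between these samples.

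In C. elegans, endogenous small interfering RNAs (siRNAs) are made in layers. The ERGO-1 Argonaute, with Dicer and the ERI-6/7 helicase, makes primary siRNAs from a limited set of genes, and RNA-dependent RNA polymerases then copy target transcripts into abundant secondary siRNAs, which other Argonautes bind. Endogenous siRNA branches compete with RNAi set off by fed RNA for shared factors, and worms without ERI proteins are known for a stronger response to such RNA. ADR-1 and ADR-2 are the ADAR proteins of the worm, and of these ADR-2 is the active editor of double-stranded RNA.

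Of the 8 loci, 7 are annotated as protein-coding and mltn-4 as a pseudogene. On build WBcel235, mltn-3 (WBGene00012199) lies at II:13916340-13919677 and belongs to the genes related to mlt-10, a gene needed for the worm's moult. The pseudogene mltn-4 (WBGene00012200) lies at II:13920555-13924726, with 877 bases between it and mltn-3. Also on chromosome II, F44E5.2 (WBGene00009689) spans II:11766772-11768622. On chromosome IV, C55C3.7 (WBGene00043065) spans IV:5678829-5682647. The cadherin gene cdh-10 (WBGene00000402) spans IV:2436498-2463369, and C45G7.13 (WBGene00235340), at IV:2441344-2451333, lies entirely inside it. The last 2 are T28F2.1 (WBGene00020900) at I:3639648-3641347 and B0507.1 (WBGene00015218) at V:8776570-8779318.

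Small RNA depth ran from 10904105 to 32303754 reads assigned to genes, recovered from the normalised values. In total RNA, eri-6 itself fell from 17.8 FPKM (fragments per kilobase, scaled to library size) in wild type, with deposited bounds of 12.6 and 23.1, to 5.35 FPKM in the eri-6 strain, with bounds of 3.33 and 7.36, in the authors' deposited table. Small RNA reads at adr-1 were 96 and 75 in adr-1;adr-2 against 368 and 439 in wild type. The drh-1 mRNA was higher, not lower, in the libraries labelled drh-1 RNAi: 32.3 against 14.3 FPKM in wild type and 65.4 against 19.02 FPKM in the triple mutant. The nrde-3 mRNA was 5.26 against 5.76 FPKM in wild type and 8.08 against 15.4 FPKM in the triple mutant on nrde-3 RNAi, and it was also lower, at 5.47 against 14.2 FPKM, in the triple mutant library labelled drh-1 RNAi. Markers of yolk, oocytes and embryos, sperm, moulting larvae, muscle and neurons were all detected in total RNA, with none at 0. Summed yolk FPKM was 1243 in wild type, 545 in eri-6, 964 in adr-1;adr-2 and 510 in the triple mutant. The oocyte and embryo sum was 79.6, 134, 433 and 360 FPKM in the same order, and the sperm sum was 20.8, 56.8, 59.6 and 69.8 FPKM. In whole-worm RNA, fewer cells of a type and less RNA per cell cannot be told apart.

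The small RNA of mltn-3 was scarce in wild type and abundant in eri-6. In the deposited normalisation, mltn-3 had 1307 and 833 normalised reads in the eri-6 libraries and 27.8 and 21.6 in wild type. Its means were 1070 ± 335 (SD, n = 2) and 24.7 ± 4.43, a log2 difference of 5.36 on log2 of the value plus 1, which ranked 1 among 23380 genes on this scale. The rank was 3 with edgeR and DESeq2 and between 3 and 7 with 1 library left out, while T28F2.1 had the larger ratio of means, at 46.6 against 43.3 for mltn-3. The lower eri-6 library was 29.9 times the higher wild-type library. Behind these values stood 1557 and 721 reads in eri-6 and 33 and 17 in wild type. The adjoining pseudogene mltn-4 had 211 and 125 normalised reads in eri-6 against 6.75 and 12.7 in wild type, a log2 difference of 3.99, from 251 and 108 reads against 8 and 10. Both genes were thus nearly silent as small RNA sources in wild type and well covered in both eri-6 libraries.

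For T28F2.1 the eri-6 libraries held 86.5 and 229 normalised reads and the wild-type libraries 1.69 and 5.08, a log2 difference of 5.13. F44E5.2 held 390 and 498 in eri-6 against 11.8 and 16.5 in wild type, a log2 difference of 4.88. These were the next in size after mltn-3 on that scale, and their eri-6 libraries lay at least 17.0 times above the higher wild-type library. B0507.1 was the least covered locus, with 59.6 and 54.3 normalised reads in eri-6 and 1.69 and 6.34 in wild type, a log2 difference of 3.704. C55C3.7 held 529 and 726 in eri-6 against 94.5 and 22.8 in wild type, a log2 difference of 3.701. Here the wild-type libraries differed most, and the lower eri-6 library was 5.60 times the higher wild-type library.

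C45G7.13 had 800 and 1845 normalised reads in eri-6 and 37.96 and 79.9 in wild type, a log2 difference of 4.44. Its host gene cdh-10 had 846 and 1872 against 72.5 and 102, a log2 difference of 3.86. The nested gene accounted numerically for most of the reads of its host: C45G7.13 reads came to 94.5% and 98.6% of the cdh-10 reads in eri-6, and to 52.3% and 78.8% in wild type. Taking the C45G7.13 reads from those of cdh-10 left 55 and 23 reads in eri-6, 41 and 17 in wild type, and 45 and 41 in adr-1;adr-2. In scaled reads that remainder was 47.4 and 30.1 in eri-6 against 35.3 and 23.4 in wild type, so the groups overlapped. The subtraction holds only if reads in the shared span were counted at both genes, a point not given in the sources used here. As the strand used in counting is unknown as well, the loci cannot be told apart in these counts.

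In all, 8 of the 8 loci had both eri-6 libraries above both wild-type libraries, as did 5.67% of all genes tested, and in all 8 the lower eri-6 library was at least 4 times the higher wild-type library, as in 0.107% of genes. None had both eri-6 libraries below, as 7.4% of genes did. These counts follow from how the loci were chosen. The median log2 difference was 4.21 over the 8 loci and 0.01 over all genes. Just inside the range of the loci stood B0507.1 and C55C3.7, at 3.704 and 3.701, and just outside it F32B5.7 at 3.58 and fat-2 at 3.51. Genes that are not among the 8 also reached it: col-87 at 4.51, C17E7.13 at 4.26, pals-27 at 4.20 and lurp-3 at 3.86. These 6 names were picked after their values were seen.

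The 8 loci did not share 1 order of the eri-6 libraries. On 1 joint scaling of the 6 libraries (trimmed mean of M-values, TMM), eri-6 replicate 1 was the higher for mltn-3, at 1.42 times replicate 2, and for mltn-4, at 1.53 times. The ratio of replicate 1 to replicate 2 was 0.996 for B0507.1, whose libraries were nearly level, and 0.343 for T28F2.1, 0.393 for C45G7.13, 0.410 for cdh-10, 0.661 for C55C3.7 and 0.711 for F44E5.2, where replicate 2 was the higher. Set against the wild-type library of the same number, mltn-3 differed by 5.51 and 5.27 on the log2 scale, F44E5.2 by 4.94 and 4.90, and C45G7.13 by 4.37 and 4.58. C55C3.7 varied most, at 2.48 in replicate 1 and 4.996 in replicate 2. There wild-type replicate 1 held 96.4 scaled reads and replicate 2 held 24.8. Wild-type replicate 1 is the library with the transgene, and the part of that in this spread was not tested.

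Per length of the annotated span, mltn-3 was also the densest source. Its eri-6 mean was 342 scaled reads per kb, ahead of F44E5.2 at 261, C55C3.7 at 179, C45G7.13 at 146 and T28F2.1 at 102 scaled reads per kb. The long host gene cdh-10 had 55.6, mltn-4 had 42.9 and B0507.1 had 22.3 scaled reads per kb. Neighbours in this order mostly overlapped: mltn-3 had 402 and 282 scaled reads per kb and F44E5.2 had 217 and 304. C55C3.7, at 142.2 and 215, lay just below F44E5.2 and overlapped C45G7.13, at 82.2 and 209. B0507.1, at 22.3 and 22.4, lay below every other locus.

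**Figure D1:**
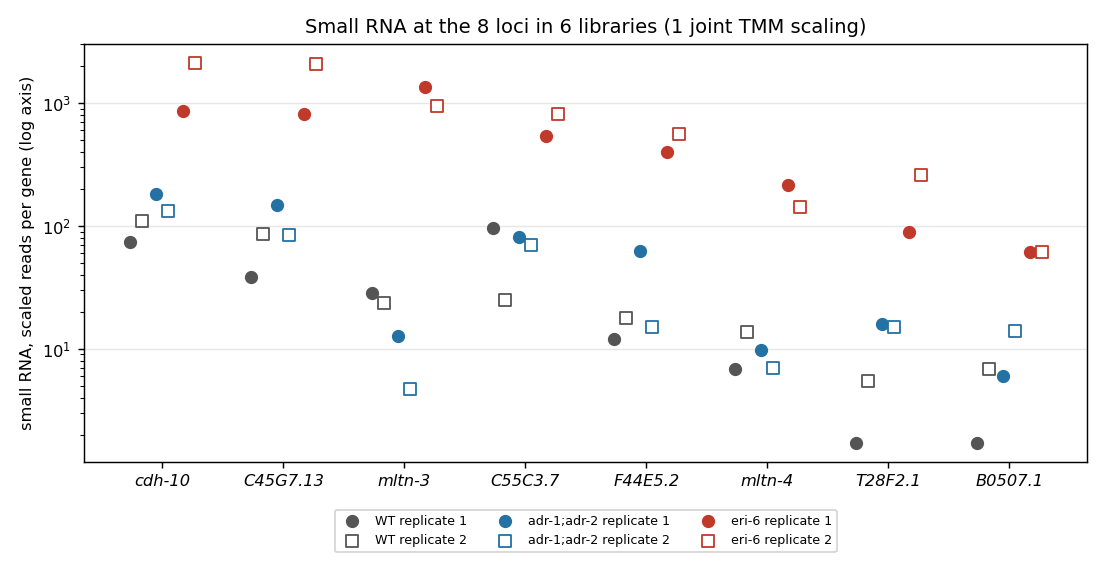
Small RNA at the 8 loci, in scaled reads per gene on a log axis, with 1 point per library of wild type, adr-1;adr-2 and eri-6 after 1 joint TMM scaling; filled circles are replicate 1 and open squares replicate 2. At each locus both eri-6 points lie above all 4 others, while the adr-1;adr-2 points lie among or near the wild-type points, except that mltn-3 lies below them and T28F2.1 and cdh-10 above them.

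Loss of the ADAR genes did not give a comparable gain. In adr-1;adr-2, mltn-3 small RNA was 12.02 and 4.55 normalised reads against 29.4 and 24.0 in wild type, as scaled in the deposited table of that comparison. Both mutant libraries lay below both wild-type libraries, by a log2 difference of -1.70 with an SE of 1.43, which did not pass the test (limma across all genes, adjusted p = 1, unadjusted p = 0.257). The wild-type libraries used here also took part in the choice of the loci. F44E5.2 held 58.7 and 14.8 normalised reads against 12.5 and 18.4, a log2 difference of 0.93 with an SE of 1.27 (limma, adjusted p = 1). C45G7.13 held 138 and 81.9 against 40.1 and 89.1, a log2 difference of 0.82 with an SE of 0.98 (limma, adjusted p = 1). At both loci the adr-1;adr-2 and wild-type libraries overlapped. For C55C3.7 the values were 77.1 and 68.3 against 99.8 and 25.5, a log2 difference of 0.51 with an SE of 1.04 (limma, adjusted p = 1). Host gene cdh-10 held 170 and 129 against 76.7 and 113, a log2 difference of 0.66 with an SE of 0.93 (limma, adjusted p = 1).

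These were the 5 loci past the minimum mean of 10 normalised reads over the 4 libraries; mltn-4, T28F2.1 and B0507.1 were not tested. The T28F2.1 values were 14.9 and 14.8 in adr-1;adr-2 against 1.78 and 5.66 in wild type, so the groups did not overlap, on 21 and 13 reads against 2 and 4. For mltn-4 and B0507.1 the groups overlapped, with 9.19 and 6.83 against 7.1 and 14.1 for mltn-4 and 5.66 and 13.7 against 1.78 and 7.07 for B0507.1. Over the 8 loci, 2 (T28F2.1 and cdh-10) had both adr-1;adr-2 libraries above both of wild type, where 7.3% of the genes past the minimum mean did. In 1 (mltn-3) both lay below, where 9.48% did. T28F2.1 is not among the genes behind these shares, and cdh-10 shares its span with C45G7.13, whose libraries overlapped. No locus had its lower adr-1;adr-2 library at 4 times the higher wild-type library, as 0.701% of genes did. Limma called 0 of 23975 genes in this comparison, 0% of those tested, with 324 genes (1.35%) at an unadjusted p under 0.05, none of them among the 5 loci tested. Over all genes, edgeR called 0 with 463 at an unadjusted p under 0.05, and DESeq2 called 118. With 2 libraries of different alleles per genotype, a change of several fold at these loci could go uncalled.

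On the joint scaling, both eri-6 libraries lay above both adr-1;adr-2 libraries at all 8 loci. The log2 difference of eri-6 from adr-1;adr-2 was 6.99 for mltn-3, where eri-6 was high and adr-1;adr-2 low, and between 2.60 for B0507.1 and 4.24 for mltn-4 for the other 7. The eri-6 libraries chose the loci, so these values carry no test. By replicate number, adr-1;adr-2 differed from wild type by -1.09 and -2.10 for mltn-3 and by 2.63 and 1.32 for T28F2.1. For F44E5.2 the values were 2.28 in replicate 1 (BB4) and -0.22 in replicate 2 (BB21), for C45G7.13 1.89 and -0.04, and for C55C3.7, the other way round, -0.23 and 1.46. The strains of both genotypes differ between the numbers, with 1 library each, so strain and library cannot be told apart.

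**Figure D2:**
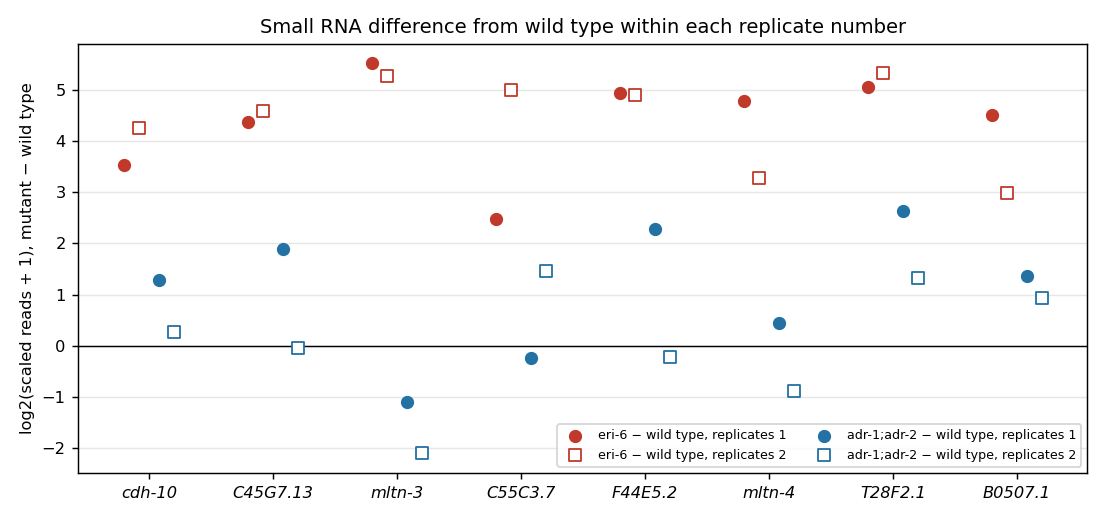
Difference of each mutant small RNA library from the wild-type library of the same replicate number, on log2 of scaled reads plus 1, for the 8 loci; red is eri-6, blue is adr-1;adr-2, and the line marks 0. The eri-6 points range from 2.48 to 5.51, and the adr-1;adr-2 points from -2.10 to 2.63. The numbers share a label and are not shown to be pairs.

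In the triple mutant, small RNA values were deposited for 381 genes, picked by the authors on these same libraries, 280 of them with a higher mean than wild type and 101 with a lower one. Among them were 2 of the 8 loci. T28F2.1 had 106 and 204 normalised reads in the triple mutant against 2.09 and 6.69 in wild type, a log2 difference of 4.92. C55C3.7 had 521 and 1192 against 117 and 30.1, a log2 difference of 3.703. At both loci the triple mutant libraries lay far above those of wild type, as the eri-6 libraries did. The other 6, mltn-3 and mltn-4 among them, were not in that selection, and their small RNA in the triple mutant was not analysed here. Because the table is a selection made on these libraries, its contents are not independent evidence of direction.

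Within the mltn family, higher small RNA in eri-6 was found at 3 adjoining genes on chromosome II. The family comprised mlt-10 and 13 mltn genes, of which 12 are not among the 8 loci. In 1 of these 12, mltn-5 (WBGene00044074, II:13925209-13930596), both eri-6 libraries lay above both of wild type, with 265 and 165 normalised reads against 16.03 and 19.03, a log2 difference of 3.51. It begins 482 bases after mltn-4 ends, so mltn-3, mltn-4 and mltn-5 lie side by side. In 1 gene, mltn-9, also on chromosome II, both eri-6 libraries lay below, at 44.5 and 47.4 against 71.7 and 62.2, a log2 difference of -0.53; it is named after its values were seen. In the other 10 the libraries overlapped. Of all genes tested, 5.67% had both eri-6 libraries above and 7.4% had both below. These shares are over genes past the minimum mean, which the relatives mltn-1 and mltn-10 were not. With 1 of 12 relatives on each side, the counts cannot be set apart from these shares, and mltn-3 and mltn-4 were chosen for their gain. The relative with the most small RNA, mltn-11 on chromosome V, held 170 and 97.1 in eri-6 against 594 and 88.8 in wild type, a log2 difference of -0.84. The log2 differences of mltn-13, mltn-7, mltn-8 and mltn-12 were -0.61, -0.23, 0.79 and 0.13. None of these differences of the relatives was called by limma, which called 0 of 23380 genes in this contrast (237 at an unadjusted p under 0.05; edgeR 0, with 247; DESeq2 140).

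**Figure D3:**
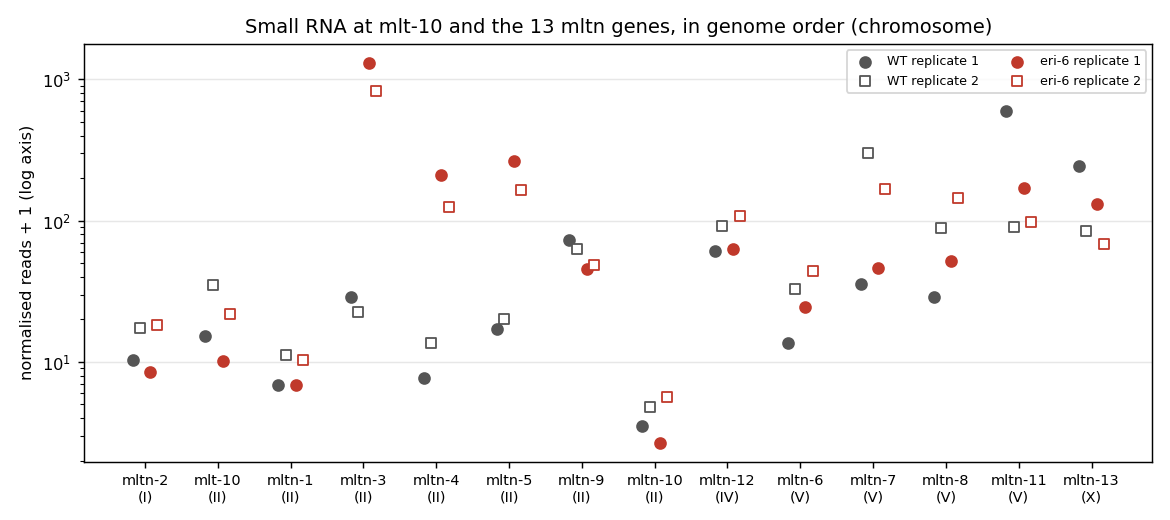
Small RNA at mlt-10 and the 13 mltn genes in genome order, as normalised reads plus 1 on a log axis, with 1 point per library of wild type (grey) and eri-6 (red). The eri-6 points stand above the wild-type points at mltn-3, mltn-4 and mltn-5 alone among the 14 genes.

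Total RNA of mltn-3 was near 0 in every genotype. The authors' deposited table gives mltn-3 at 0.0504 FPKM in wild type, 0.0160 in eri-6, 0.0183 in adr-1;adr-2 and 0.0973 in the triple mutant, with bounds that all overlap. In the authors' deposited table mltn-4 is listed at 0 in all but the triple mutant, at 0.0267 FPKM. At neither gene did the bounds of any genotype part from those of wild type. All 8 loci were low in wild type: in the authors' deposited table their median was 0.0573 FPKM and each was under 1 FPKM, where the median of 16695 genes with small RNA was 0.430 FPKM and 55.8% were under 1 FPKM.

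C55C3.7 was the exception among the 8. It is listed at 0 in wild type in the authors' deposited table, and at 4.66 FPKM in eri-6 (bounds 1.81 and 7.51), 0.222 in adr-1;adr-2 (bounds 0 and 0.777) and 3.78 in the triple mutant (bounds 1.27 and 6.29). So C55C3.7 was higher in both strains that carry eri-6(mg379), and overlapped wild type in adr-1;adr-2. Both of its wild-type bounds are 0, so any lower bound above 0 in a mutant would give this call. T28F2.1 is listed at 0 in wild type too, and at 0.454 FPKM in eri-6 (bounds 0 and 1.59) and 1.16 FPKM in the triple mutant (bounds 0 and 3.13) in the authors' deposited table, which overlap the wild-type value. For F44E5.2 the authors' deposited table gives 0.122, 0.199, 0.393 and 0.256 FPKM in wild type, eri-6, adr-1;adr-2 and the triple mutant. In the same order the authors' deposited table gives B0507.1 at 0.0641, 0.114, 0.228 and 0.287 FPKM, C45G7.13 at 0.427, 0.494, 0.511 and 0.335 FPKM, and cdh-10 at 0.0967, 0.0515, 0.0607 and 0.0492 FPKM. None of these differed by its bounds.

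Counted over the 8 loci in the authors' deposited table, 1 was higher and 0 lower in eri-6, where 8.76% of all genes were higher and 5.03% lower. In adr-1;adr-2, 0 of the 8 were higher and 0 lower, against 14.4% and 9.72% of genes. In the triple mutant 1 was higher and 0 lower, against 15.5% and 12.6%. A call of lower was out of reach for 6 of the 8, whose lower bound in wild type is 0. The counts of the 8 are too small to set apart from these shares.

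**Figure D4:**
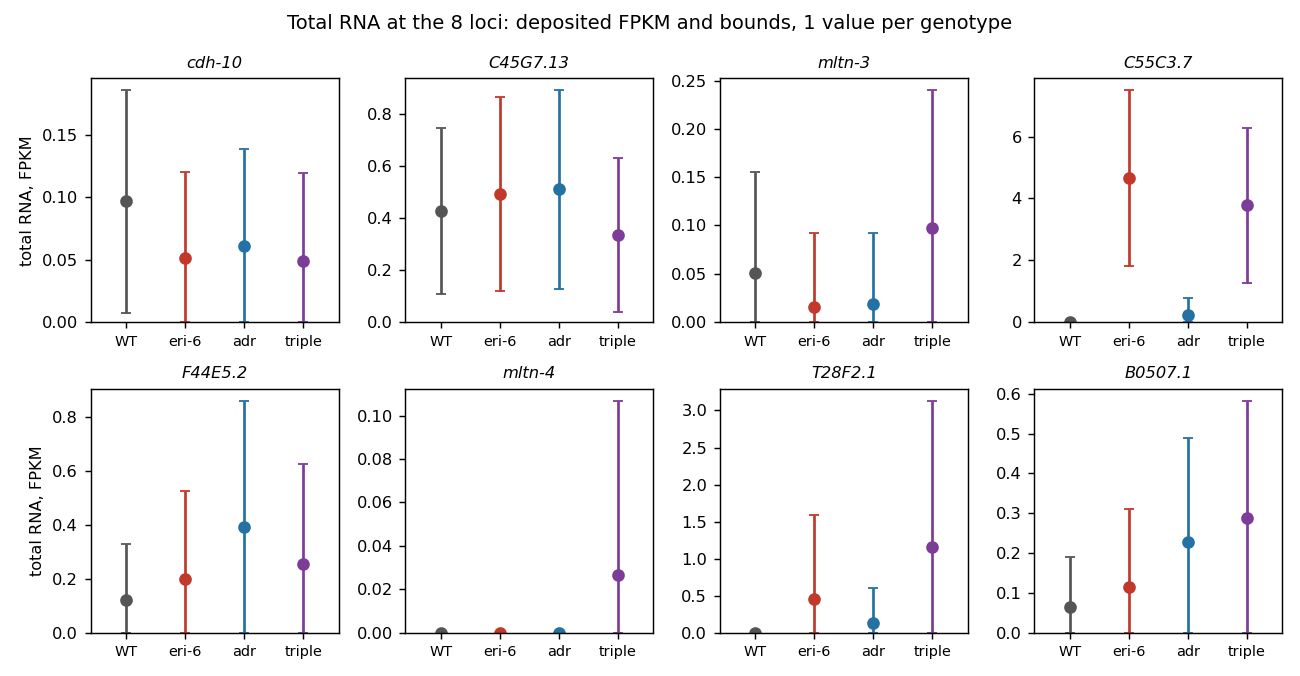
Total RNA at the 8 loci in FPKM on linear axes that differ between panels; each point is the authors' deposited value of 1 genotype over 2 libraries and each bar runs from its lower to its upper deposited bound (adr is adr-1;adr-2, triple is adr-1 eri-6;adr-2). Only at C55C3.7 do the eri-6 and triple mutant bars, which start at 1.81 and 1.27 FPKM, clear the wild-type value of 0.

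In poly(A)-selected mRNA, C55C3.7 was again the locus that stood apart among the 8. The mRNA of its neighbours C55C3.3 and C55C3.6 was also higher in the triple mutant than in wild type on each food. On control RNAi, C55C3.7 had 0.682 FPKM in wild type and 8.93 FPKM in the triple mutant, a ratio of 5.91 on FPKM plus 1. On drh-1 RNAi it had 1.07 and 10.2 FPKM (ratio 5.39), and on nrde-3 RNAi 1.36 and 10.3 FPKM (ratio 4.79). With 1 library per condition there was no replicate check, and a gene was called at a ratio of at least 4. At that size 1 of 8 loci was higher in the triple mutant on each food, against 2.44% of genes on control, 1.92% on drh-1 and 1.9% on nrde-3 RNAi.

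T28F2.1 came next, at 0.0545 FPKM in wild type and 2.88 FPKM in the triple mutant on control RNAi, a ratio of 3.68 on FPKM plus 1. On nrde-3 RNAi it had 0.0938 and 2.62 FPKM, and on drh-1 RNAi it was listed at 0 in wild type and had 2.31 FPKM in the triple mutant, a ratio of 3.31 on either food. B0507.1 had 0.253 and 1.59 FPKM on control RNAi, a ratio of 2.07, and ratios of 1.37 and 1.32 on drh-1 and nrde-3 RNAi. The 2 loci listed among the triple mutant's selected small RNAs, C55C3.7 and T28F2.1, were thus the 2 with the largest mRNA ratios. For mltn-3, mRNA was listed at 0 in wild type and at 0.136 FPKM in the triple mutant on control RNAi, and at 0.0221 and 0.139 FPKM on nrde-3 RNAi. C45G7.13 had 0.555 and 0.861 FPKM, F44E5.2 0.474 and 0.339 FPKM, cdh-10 0.0210 and 0.0808 FPKM, and mltn-4 0 and 0.0431 FPKM, on control RNAi in wild type and the triple mutant. All of these values were under 1 FPKM.

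Within a genotype, no locus was called higher on an RNAi food than on control. DRH-1 is a RIG-I-like helicase of the worm's antiviral response, and NRDE-3 is an Argonaute that takes siRNAs into the nucleus. In the libraries labelled drh-1 RNAi, 0 of 8 loci were higher than on control in wild type (0.778% of genes) and 0 in the triple mutant (0.799%). On nrde-3 RNAi the count was again 0 in wild type (1.01% of genes) and in the triple mutant (0.829%). Falls could not be judged: a 4-fold fall on FPKM plus 1 needs a control value of at least 3 FPKM, and 8 of 8 loci were under it in wild type and 7 of 8 in the triple mutant. F44E5.2, for example, went from 0.312 FPKM to a listed 0 on drh-1 RNAi in the triple mutant. In the triple mutant, C55C3.7 went from 8.93 to 10.3 FPKM on nrde-3 RNAi and from 8.23 to 10.2 FPKM on drh-1 RNAi, each within its own table. B0507.1 had lower values on both foods, at 0.681 against 1.59 FPKM and 0.728 against 1.46 FPKM, or 0.649 and 0.702 times control on FPKM plus 1.

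**Figure D5:**
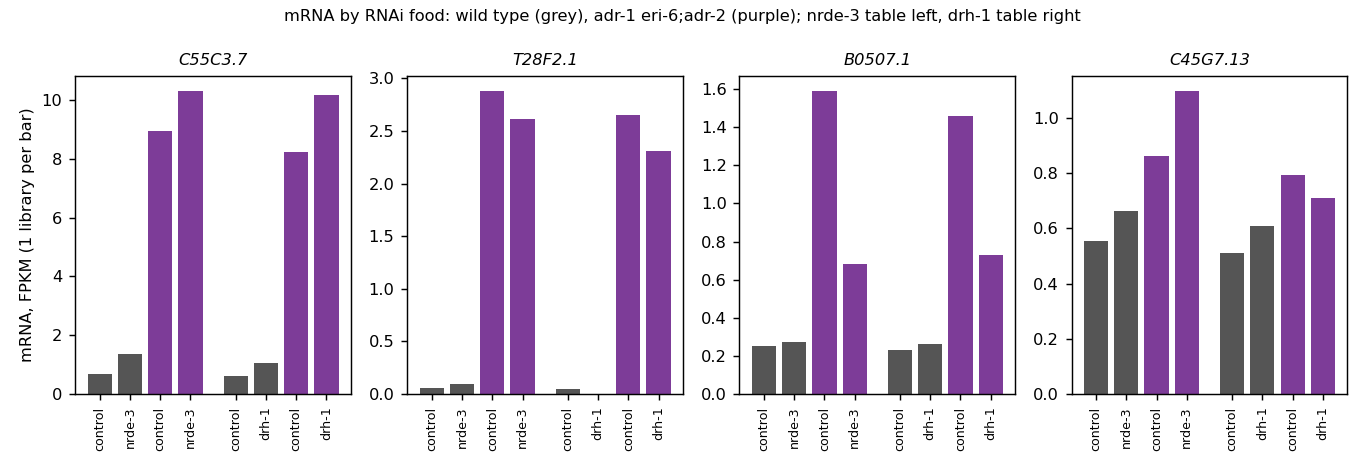
mRNA of the 4 loci with the highest mRNA, in FPKM, with 1 library per bar; grey is wild type and purple the triple mutant, and each panel has the nrde-3 table at left and the drh-1 table at right, which hold the same control libraries scaled separately. C55C3.7 stands between 8.23 and 10.3 FPKM in the triple mutant and between 0.628 and 1.36 FPKM in wild type.

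The genes around the loci showed both directions of small RNA. Within 5 kb of a locus lay 40 other genes, 16 of them with a mean of at least 10 normalised reads, of which 6 had both eri-6 libraries above both of wild type, 3 had both below and 7 overlapped. Over all genes past that mean the shares above and below were 5.67% and 7.4%. Beside T28F2.1, jmjc-1, which encodes a JmjC-domain protein, held 493 and 839 normalised reads in eri-6 against 3512 and 8327 in wild type, a log2 difference of -3.07. Its total RNA was 1.48 FPKM in wild type, 10.9 in eri-6 and 9.29 in the triple mutant in the authors' deposited table, with both mutants higher by their bounds. On the other side of T28F2.1, ccb-1, a calcium channel beta subunit gene, had more small RNA in eri-6, at 254 and 378 against 83.5 and 162, and also more total RNA, at 5.80 against 1.70 FPKM in the authors' deposited table. T28F2.2 held 101 and 193 normalised reads in eri-6 against 27.8 and 73.6. In the total RNA table T28F2.1 shares 1 merged locus with jmjc-1, T28F2.2 and ccb-1, so the neighbours may share fragments there.

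Beside mltn-3, citk-1, a gene related to citron kinase, had less small RNA in eri-6 where mltn-3 had more, with 430 and 773 normalised reads in eri-6 against 807 and 2625 in wild type, a log2 difference of -1.34. Total RNA of citk-1 was 0.608 FPKM in wild type, 3.18 in eri-6, 1.64 in adr-1;adr-2 and 6.77 in the triple mutant in the authors' deposited table, higher in all 3 mutants. Beside C55C3.7, C55C3.3 held 174 and 400 against 370 and 944 normalised reads, which overlap, and C55C3.6 held 69.7 and 120 against 86.0 and 5.08, which also overlap. Their total RNA was higher in eri-6, at 5.45 against 0.215 FPKM for C55C3.3 and 1.51 FPKM for C55C3.6, in the authors' deposited table. C55C3.6 is listed there at 0 in wild type, with both bounds at 0. Among the 18 neighbours with total RNA above 0, 5 were higher and 1 lower in eri-6 (8.76% and 5.03% of all genes). In adr-1;adr-2, 1 was higher and 2 were lower of 16 (14.4% and 9.72% of all genes), and in the triple mutant 6 were higher and 1 lower of 16 (15.5% and 12.6%). F44E5.15, near F44E5.2, held 655 and 992 in eri-6 against 256 and 88.8 normalised reads, a log2 difference of 2.41, and B0507.2, beside B0507.1, held 48.7 and 70.5 against 7.59 and 12.7, a log2 difference of 2.46. Their total RNA overlapped wild type in eri-6 in the authors' deposited table.

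Over the 6 small RNA libraries, the genes outside the 8 loci whose pattern was nearest to that of mltn-3 were C18B2.4, the collagen gene col-87, oac-3, lurp-3 and F32B5.7. Likeness was the Euclidean distance between log2 values centred on each gene's own mean, among 23984 genes, and came to 3.06, 3.72, 3.77, 4.02 and 4.06. The nearest gene of all was the adjoining mltn-4, at 2.94, and the farthest of the 8 loci was B0507.1, at 4.93, ranked 35. C18B2.4 held 2606 and 3450 scaled reads in eri-6, 247 and 600 in wild type and 241 and 45.5 in adr-1;adr-2. Its total RNA was 28.8 FPKM in wild type and 29.8 FPKM in eri-6 in the authors' deposited table.

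Genes of the siRNA pathways were read beside the loci from a list of 41, of which 29 were measured in total RNA. By the bounds of the authors' deposited table, 6 of them were higher and 1 lower in eri-6, 21 higher and 0 lower in adr-1;adr-2, and 17 higher and 2 lower in the triple mutant. Over all genes the shares higher and lower were 8.76% and 5.03%, 14.4% and 9.72%, and 15.5% and 12.6%. The list's median log2 difference was 0.37, 1.21 and 1.13 against 0.10, 0.10 and 0.09 over all genes. The one that fell in eri-6 was eri-6 itself. The authors' deposited table gives eri-7, the trans-splicing partner of eri-6, at 3.39 FPKM in wild type and 10.1 FPKM in eri-6. For rde-2, a mutator gene needed for secondary siRNAs, the authors' deposited table gives 6.20 and 17.0 FPKM, and for the RNA-dependent RNA polymerase gene ego-1 it gives 7.20 and 14.6 FPKM. These 3 were higher in all 3 mutants by their bounds. The oocyte and embryo markers given above moved with these genes, with 2 of 6 higher in eri-6, 5 of 6 in adr-1;adr-2 and 5 of 6 in the triple mutant, and their part in the result was not tested. As small RNA sources, 0 of 40 pathway genes measured had both eri-6 libraries above wild type and 4 had both below, beside 5.67% and 7.4% of all genes tested.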

How the data were processed

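Small RNA of gel-selected size was treated with a 5′ polyphosphatase, total RNA was depleted of ribosomal RNA, and mRNA was poly(A)-selected with a directional kit, per the labels' protocols. Per the submitters' processing notes the build was WBcel235 and the tools were TopHat2, Cufflinks, Cuffdiff, BWA, featureCounts, Trim Galore and DESeq2, with versions, roles and settings not given in the sources used here. In small RNA, the authors deposited a normalised signal for every gene in each wild-type, eri-6 and adr-1;adr-2 library. For the triple mutant they deposited it for 381 selected genes. Whole reads were recovered within 0.01 read for 100% of values in the eri-6 and adr-1;adr-2 tables, and the wild-type reads are the same in both. For total RNA the authors deposited 1 FPKM value for each genotype between a lower and an upper bound, the level of these bounds being not given in the sources used here. For mRNA the authors deposited FPKM of each library, and the depth of the FPKM libraries is unknown.

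The eri-6 and adr-1;adr-2 small RNA tables were each fitted alone with limma 3.58.1 (trend) in R 4.3.3 on log2(value + 1), two-sided, keeping genes whose mean was 10 or more, with Benjamini-Hochberg adjustment over all genes at 0.05. The same fit was also run on simulated reads, whose spread was fixed and not estimated from these libraries, so that run does not show its power here. Recovered reads were also fitted with edgeR 4.0.16 (quasi-likelihood) and DESeq2 1.42.0, and scaled together by TMM. In total RNA a call needed bounds that do not overlap, and in mRNA a ratio of at least 4 on FPKM plus 1. Entries whose gene ID had several rows (321 of 36234 in total RNA) were left out, and adr-1 and adr-2 in total RNA were not analysed here. Of the gene IDs, 43818 were named from the RefSeq table of WBcel235 and 2704 from the FPKM tables. Other settings were pseudocounts, filters, scalings, the replicate block and leaving out each library.

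The 8 loci, the gene lists and the rules were chosen with earlier results of these data known. Besides the 8 loci, named genes were mltn relatives (up to 6, by mean small RNA), neighbours within 5 kb (up to 3 per locus, likewise), the 5 nearest patterns to mltn-3 and up to 4 siRNA pathway genes with the largest total RNA change in eri-6. Tables and figures were made with matplotlib 3.10.9, numpy 2.4.6 and pandas 2.3.3 in Python 3.11.15.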

Additional observations from a re-analysis of the deposited data

How the results depend on the processing

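The median log2 small RNA difference of the 8 loci between eri-6 and wild type was 4.21, was 3.62 with a pseudocount of 10 and lay between 4.10 and 4.73 with 1 library left out. No single value changed sign. Of the settings that kept all libraries, only a pseudocount of 10 gave values outside the range of the fits with 1 library left out. These were 4.93 for mltn-3, 3.15 for mltn-4, 3.52 for T28F2.1, 4.23 for F44E5.2 and 2.28 for B0507.1. With 1 library left out, T28F2.1 (5.13 with all libraries) was 5.83 without eri-6 replicate 1, 4.44 without eri-6 replicate 2, 4.54 without wild-type replicate 1 and 5.72 without wild-type replicate 2, and C45G7.13 (4.44 with all) was 5.04 and 3.84 without eri-6 replicates 1 and 2. B0507.1 was 2.98 and 4.43, and C55C3.7 4.702 and 2.70, without wild-type replicates 1 and 2 (3.704 and 3.701 with all). Leaving out cdh-10, a setting chosen after seeing the data, changed no direction. Over all genes the limma count for eri-6 was 0, but 48 with TMM scaling, 75 with scaling to total reads, 140 with DESeq2 and between 46 and 99 with 1 library left out. Most of these calls were lower in eri-6: 47 with TMM scaling, 73 with scaling to total reads and 125 with DESeq2. In fits with 1 library left out the lone library is assumed to vary like the other group. For adr-1;adr-2 it was 0, but 2 with a pseudocount of 10, 36 with scaling to total reads, 118 with DESeq2 and between 5 and 88 with 1 library left out. None of the 5 loci tested in adr-1;adr-2 was called under any setting. Their log2 differences changed sign with 1 library left out for F44E5.2, between -0.034 without adr-1;adr-2 replicate 1 and 1.89 at most, and for C55C3.7, between -0.46 without wild-type replicate 2 and 1.48 at most. The cause was not tested.

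With the replicate number as a block, limma called 106 genes in eri-6 (98 of them lower) and 0 in adr-1;adr-2. Same-numbered libraries deviated together (r across 23985 genes of 0.679 for wild type with eri-6, 0.598 for wild type with adr-1;adr-2, 0.701 between both mutants), but no label says that a number marks a shared batch.

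In mRNA, the count of 1 locus higher in the triple mutant became 3 on control, 2 on drh-1 and 2 on nrde-3 RNAi, both with FPKM plus 0.1 and at a ratio of at least 2. With FPKM plus 0.1, 1 locus, F44E5.2, was lower on drh-1 RNAi than on control in the triple mutant, where the count was 0 on FPKM plus 1. That call rests on 0.312 FPKM on control against a listed 0. The shares of all genes at these looser settings were not computed, so these counts have no background beside them. The total RNA counts did not change with centring on the median ratio or with a 2-fold minimum. Limits are the 2 libraries per genotype, the low total RNA of 7 of the 8 loci, the single mRNA libraries, the strains that differ within wild type and adr-1;adr-2, and reads shared between cdh-10 and C45G7.13.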
